A study of Mus musculus with 20 samples.

Results

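The transcripts of 10 genes, those of the p53 family and of its direct regulators, were measured in mouse osteosarcomas of 4 p53 genotypes and in a cell line with and without p53 siRNA. Trp53, Trp63 and Trp73 encode the 3 transcription factors of the family. Mdm2, Mdm4, Ppm1d, Cdkn2a, Usp7, Wrap53 and Trp53bp1 encode proteins or transcripts that act directly on p53. The members were chosen by name, and all 10 were found by Ensembl gene ID among the 49585 gene IDs of the count table. Of these, 9 passed the filter on low counts, as did 20616 genes in all. Trp73 did not pass.

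The series holds RNA-seq libraries from 18 frozen primary osteosarcomas, and the strain of the mice is a mix of C57BL/6J with 129S/SvJae. The labels give 4 tumours as p53+/-, 6 as p53R172H/+, 3 as p53R245W/+ and 5 as p53R270H/+, and the last 3 genotypes are called R172H, R245W and R270H here. Each missense genotype carries 1 allele in which an arginine of the DNA-binding domain is replaced, beside 1 wild-type allele, and the p53+/- mice have 1 wild-type allele only. So no group has 2 wild-type alleles, and which alleles each tumour still held, as well as the age and sex of the mice, is not given in the sources used here. Another 2 libraries come from an osteosarcoma cell line, line 14, labelled p53R245/O. Its control library is labelled as a heterozygous mutant with loss of heterozygosity, and the other as p53 siRNA knockdown. The line is 1 line with 1 library per condition.

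Tumour libraries held 20136957 to 29211623 counts and the line libraries 64078428 and 73352548. Levels are counts-per-million values (CPM) of the library total without further scaling, so that 3 counts correspond to at most 0.149 CPM in a tumour. The summed level of 15 osteoblast and osteocyte markers was 34471 to 135819 CPM in the tumours and 8224 and 9283 CPM in the line. Summed markers of macrophages and osteoclasts were 1338 to 15807 CPM in the tumours against 133 and 129 CPM in the line. Summed epidermal markers were 461 CPM in R270H tumour 4, 84.5 CPM in R270H tumour 3 and 66.6 CPM in p53+/- tumour 4, and at most 19 CPM in every other tumour. In whole-tumour RNA, fewer cells of a type and less RNA per cell cannot be told apart. The sample titles are of different kinds. A serial number stands in the titles of the R172H tumours, the R245W tumours and p53+/- tumours 1 and 2, and is missing from those of the R270H tumours and p53+/- tumours 3 and 4. Whether the kind of title marks a batch is not stated, and R270H cannot be told apart from it in comparisons with R172H and R245W.

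p53 is a transcription factor that is normally kept at a low level because Mdm2, a ubiquitin ligase that p53 itself induces, marks it for degradation. Mdm4 binds and blocks p53 together with Mdm2, Usp7 removes ubiquitin from both p53 and Mdm2, the Arf protein of Cdkn2a holds Mdm2 away from p53, and the phosphatase Ppm1d shuts the damage response down. Missense p53 proteins found in tumours bind DNA poorly or fold poorly and often accumulate, largely at the level of protein, which is not measured here.

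The codons that name the missense alleles show where the genotypes differ in the gene itself. Trp53 lies on the plus strand of chromosome 11 (GRCm38, 69580359 to 69591873), and in the annotated transcript Trp53-203, of 390 codons, arginine is found at each of the 3 positions that the names R172H, R245W and R270H give. The lines below are reference sequence (GRCm38), plus strand, 5′ to 3′, with 15 bases on each side and the arginine codon in capitals. The deposited counts do not show which allele a read came from.

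Trp53 codon of R172H, exon 5, chr11:69588496-69588528: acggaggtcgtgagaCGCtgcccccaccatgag

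Trp53 codon of R245W, exon 7, chr11:69589195-69589227: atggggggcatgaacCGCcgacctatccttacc

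Trp53 codon of R270H, exon 8, chr11:69589592-69589624: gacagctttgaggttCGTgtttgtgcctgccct

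Trp53 shares its upstream region with another member. Wrap53, which encodes a telomerase and Cajal body protein and, in human cells, an antisense transcript reported to sustain p53 mRNA, starts on the opposite strand 103 bases away. The stretch between both annotated genes is shown because the levels of the pair are compared further on. Its capitals mark the single match to a short p53-type motif, that is, a pair of words of 4 bases with 6 bases between them, each word starting with C, ending with G and having A or T at both places between. The reverse complement of such a word is such a word, so the search covers both strands.

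Between Wrap53 and Trp53, chr11:69580256-69580358: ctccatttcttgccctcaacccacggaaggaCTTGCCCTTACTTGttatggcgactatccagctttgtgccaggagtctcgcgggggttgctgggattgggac

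The match starts 72 bases before the first base of Trp53. In the RefSeq promoter windows (GRCm38 table, 250 bases before to 50 after each start), the motif was found in 2371 of 32851 windows, or 7.22%. Among the members 2 of 13 windows held it, 1 of Trp53 and 1 of Wrap53, and both cover this stretch. None of the 10 windows of the other members held it, Trp63 had no window in the table, and 9 of 31 windows of 24 p53 target genes did (29%). A match describes letters, not binding.

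The mean level of Trp53 transcript was lowest in p53+/- tumours and higher in each of the 3 missense genotypes. In p53+/- tumours 1 to 4 it stood at 13.5, 27, 22.2 and 18 CPM. In the 6 R172H tumours it ranged from 36.3 to 71.3 CPM with a median of 48.6 CPM, in the 3 R245W tumours it was 57.5, 74 and 61.9 CPM, and in the 5 R270H tumours it was 45.4, 28.1, 26.5, 53.2 and 30.6 CPM. Every R172H and every R245W tumour was above every p53+/- tumour. R270H tumours 1 and 4 reached the range of R172H, and R270H tumour 3 lay below the highest p53+/- tumour. On the TMM-scaled levels used for testing, R270H tumours 2, 3 and 5 all lay below that p53+/- tumour. Group means were 20.2 ± 5.75 (SD, n = 4), 50.6 ± 13.5 (n = 6), 64.5 ± 8.54 (n = 3) and 36.8 ± 11.9 CPM (n = 5) in the same order.

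**Figure D1:**
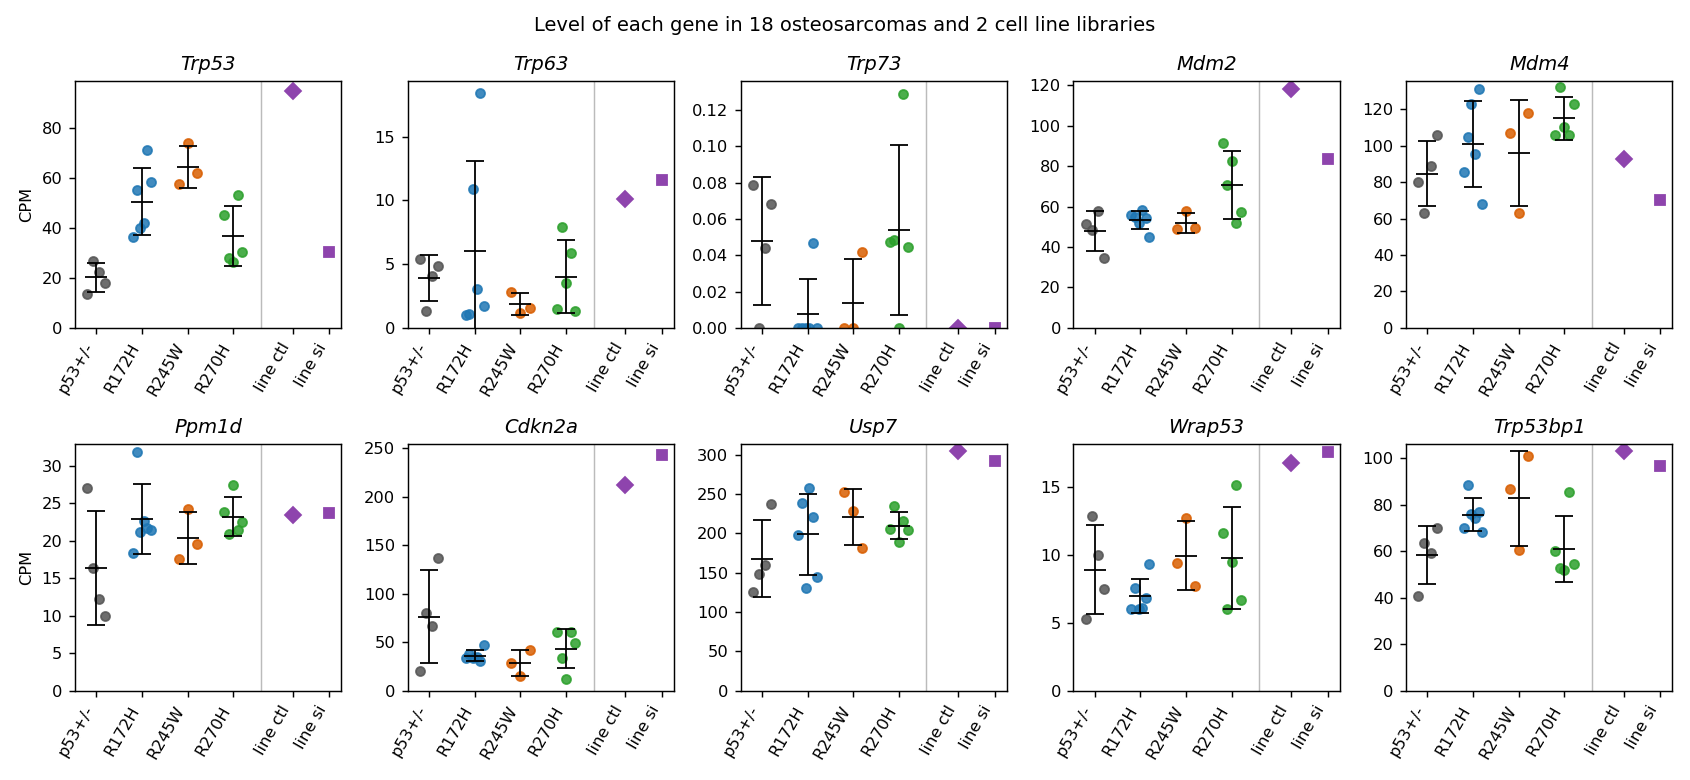
Level of each of the 10 genes in CPM (y axes, linear, each with its own scale) in the 18 tumours by genotype and in the control and p53 siRNA libraries of line 14; circles are tumours, bars are the mean and 1 SD of each genotype, and the diamond and square are single libraries. Trp53 rises from 13.5 to 27 CPM in p53+/- tumours to 57.5 to 74 CPM in R245W tumours, and Trp73 stays at or below 0.129 CPM.

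Across all 4 genotypes Trp53 passed the test for any difference (edgeR quasi-likelihood F test, adjusted p = 0.0326, Benjamini-Hochberg over 20616 genes). It was the only member of the 9 tested to do so, against 2.86% of all genes, and it ranked 273 by p. The result did not pass with the kind of title as a covariate (adjusted p = 0.27), with limma voom (adjusted p = 0.06), or without the 3 tumours of highest epidermal sum (adjusted p = 0.0995). Without any one of 6 tumours (p53+/- 4, R172H 4, R245W 2, R245W 3, R270H 1 and R270H 3) the adjusted p was 0.0516 to 0.0572.

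In single contrasts Trp53 did not pass the adjusted threshold of 0.05 in edgeR. Against p53+/- tumours the log2 fold of R172H was 1.17 ± 0.27 (standard error, adjusted p = 0.106). That of R245W was 1.57 ± 0.30 (adjusted p = 0.0744), and that of R270H was 0.74 ± 0.27 (adjusted p = 0.295). For the mean of the 3 missense genotypes it was 1.16 ± 0.25 (adjusted p = 0.0854). In exact two-sided permutation tests of the same levels, R172H against p53+/- gave p = 0.00476 and R245W against p53+/- gave p = 0.0286, each the smallest p that its design allows. R270H against p53+/- gave an exact p = 0.0556, and none of the 63 exact tests run for 9 members and 7 contrasts passed after Benjamini-Hochberg adjustment, although 10 had a raw p below 0.05. Tumour p53+/- 2, with the highest Trp53 of its group, changed these calls: without it the fold of R172H was 1.41 (adjusted p = 0.0309), that of R245W was 1.81 (adjusted p = 0.0341) and that of all missense tumours was 1.40 (adjusted p = 0.0355). Without that tumour 134, 30 and 44 of 20536 genes were called in these contrasts. DESeq2 called the same 3 contrasts, with adjusted p = 0.00572, 0.00088 and 0.00172, the lowest of all alternatives. The highest were 0.594, 0.327 and 0.633. Over all 20616 genes DESeq2 called 295, 363 and 130 in these contrasts, against 16, 15 and 12 in edgeR.

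Within each kind of title the same order held for the values themselves. Among titles with a serial number, p53+/- tumours had 13.5 and 27 CPM against at least 36.3 CPM in R172H and R245W. Among titles without one, p53+/- tumours had 22.2 and 18 CPM against 26.5 to 53.2 CPM in R270H.

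Among the missense genotypes Trp53 was highest in R245W and lowest in R270H. The log2 fold of R245W against R172H was 0.40 ± 0.28 (adjusted p = 0.632) and that of R270H against R172H was -0.43 ± 0.24 (adjusted p = 0.302), and both pairs of groups overlapped. R270H against R245W gave -0.83 ± 0.29 (adjusted p = 0.136, exact p = 0.0357), and here the groups did not overlap. The order of the levels was thus p53+/-, R270H, R172H and R245W. By edgeR no pair of neighbours in that order differed past the adjusted threshold.

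**Figure D2:**
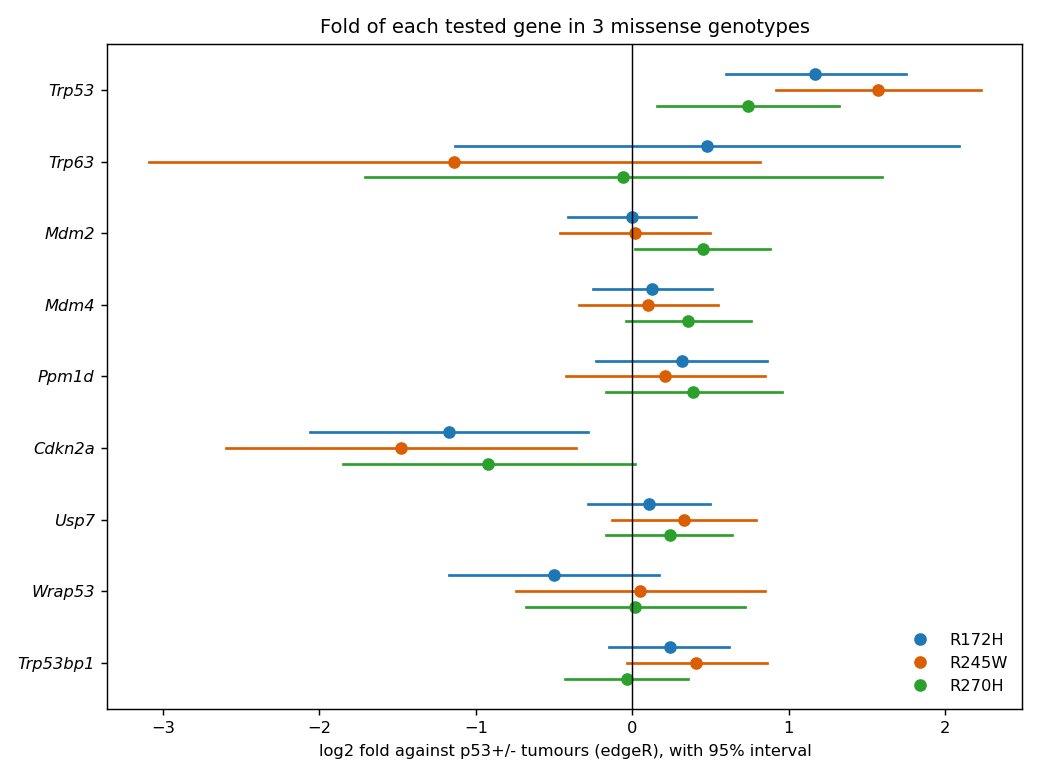
Log2 fold of the 9 tested genes in each missense genotype against p53+/- tumours (x axis; edgeR estimate as a point, 95% interval as a line). The intervals of Trp53 lie above 0 in all 3 genotypes, that of Mdm2 lies above 0 in R270H (0.02 to 0.88), those of Cdkn2a lie below 0 in R172H and R245W, and none of the 27 folds passed the adjusted threshold.

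No member was called in any of the 7 contrasts. The background was 0.0776% of genes called for R172H against p53+/-, 0.0728% for R245W against p53+/-, 0% for R270H against p53+/-, 0.155% for R245W against R172H, 5.28% for R270H against R172H, 1.24% for R270H against R245W and 0.0582% for the missense mean against p53+/-. At an unadjusted p below 0.05 the members numbered 2, 2, 3, 0, 1, 2 and 2 of 9 in that order. All genes reached 12.3%, 12.5%, 11.5%, 10.8%, 23.2%, 18.4% and 9.74%. Groups did not overlap for Trp53 in R172H and R245W against p53+/- and in R270H against R245W, and for Mdm4 in R270H against p53+/-. The share of all genes whose groups did not overlap in those contrasts was 2.03%, 8.77%, 13.5% and 3.07%.

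Trp63 encodes p63, the family member that stratified epithelia depend on. It was detected in all 18 tumours at a low and uneven level. It stood at 5.4, 1.36, 4.04 and 4.86 CPM in p53+/- tumours, from 0.974 to 18.4 CPM with a median of 2.4 CPM in R172H, at 2.85, 1.18 and 1.54 CPM in R245W, and at 1.47, 7.94, 3.51, 5.86 and 1.3 CPM in R270H. R172H tumours 5 and 3, at 18.4 and 10.9 CPM, stood above all others, and all 4 genotypes overlapped. Its biological coefficient of variation in the fit was larger than that of 89.4% of tested genes. Its widest fold was -1.62 ± 0.88 for R245W against R172H (adjusted p = 0.536), and it was -0.89 without R172H tumour 5 and -0.66 with limma voom. The highest Trp63 levels did not lie in the tumours of highest epidermal sum. In R172H tumours 3 and 5 that sum was 8.3 and 11.5 CPM, with counts for 10 and 11 of the 16 markers. Trp63 was 5.86 CPM in R270H tumour 4 and 3.51 CPM in R270H tumour 3.

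Trp73 encodes p73, which multiciliated epithelium and parts of the nervous system need. It had 13 counts over all 18 tumours, in 9 of them, and 0 counts in both line libraries. Its highest level was 0.129 CPM, not above the limit that 3 counts set, so no fold was computed. Of 12 multiciliated markers 7 to 11 had counts in each tumour, with sums of 7.72 to 14.8 CPM in p53+/-, 11.3 to 17.9 CPM in R172H, 12.4 to 19 CPM in R245W and 9.57 to 24.7 CPM in R270H. The defining marker Mcidas was at 0 in every tumour, and Gmnc was at 0 in 17 of 18. The part of such cells in the Trp73 counts was not tested. Per kilobase of annotated exon and averaged over the tumours, Trp53 stood at 10.5 CPM, Trp63 at 0.513 CPM and Trp73 at 0.00551 CPM. The length used joins all annotated exons of a gene and can exceed that of any 1 transcript.

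Mdm2 and Mdm4, the ligase and its partner that hold p53 in check, both had their highest mean in R270H. Mdm2 was nearly level between p53+/-, R172H and R245W. The mean of Mdm4 was 84.5 CPM in p53+/-, 101 CPM in R172H, 95.9 CPM in R245W and 115 CPM in R270H. Mdm2 stood at 51.4, 48.4, 57.9 and 34.5 CPM in p53+/- tumours, from 45.2 to 58.3 CPM with a median of 54.5 CPM in R172H, and at 49.1, 57.8 and 49.5 CPM in R245W. In R270H tumours 1 to 5 it was 91.6, 70.5, 82.4, 51.9 and 57.2 CPM. R270H tumours 1, 2 and 3 exceeded every tumour of the other genotypes, and R270H tumours 4 and 5 lay among them. Its log2 fold in R270H was 0.45 ± 0.20 against p53+/- (adjusted p = 0.397), 0.45 ± 0.18 against R172H (adjusted p = 0.136, exact p = 0.0108) and 0.43 ± 0.22 against R245W (adjusted p = 0.302).

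Mdm4 stood at 80.2, 63.3, 88.8 and 106 CPM in p53+/- tumours and from 68.1 to 131 CPM with a median of 99.9 CPM in R172H. It was 107, 62.8 and 118 CPM in R245W and 106, 132, 110, 106 and 123 CPM in R270H. The R270H tumours were all at or above 106 CPM, and the highest p53+/- tumour reached that level too. On the TMM-scaled levels used for testing, R270H and p53+/- did not overlap, with a log2 fold of 0.36 ± 0.18 (adjusted p = 0.474) and the smallest exact p its design allows, 0.00794. On unscaled CPM both groups overlapped.

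Cdkn2a, whose 2 reading frames encode the Mdm2 inhibitor Arf and the Cdk4 and Cdk6 inhibitor p16Ink4a, was the most variable regulator and had its highest values in p53+/- tumours. It stood at 20.3, 80.3, 66.7 and 137 CPM there, from 30.7 to 46.6 CPM with a median of 34.2 CPM in R172H, at 28.7, 15.2 and 42 CPM in R245W and at 60.3, 33.7, 12.3, 60.1 and 49 CPM in R270H. The 3 highest tumours of the series were p53+/- 2, 3 and 4, and p53+/- tumour 1 lay among the lowest. Against p53+/- tumours the log2 fold of R172H was -1.17 ± 0.42 (adjusted p = 0.29), that of R245W was -1.48 ± 0.52 (adjusted p = 0.266) and that of R270H was -0.92 ± 0.44 (adjusted p = 0.435). For all missense tumours it was -1.19 ± 0.35 (adjusted p = 0.258, exact p = 0.0337). Left out in turn, p53+/- tumour 4 brought that fold to -0.84 and p53+/- tumour 1 to -1.50. Without p53+/- tumour 1, Cdkn2a passed the test for any difference, which it did not in all 18 tumours (adjusted p = 0.16). Without that tumour 937 of 20466 genes passed. Gene-level counts cannot tell the Arf and p16Ink4a transcripts apart.

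Per kilobase of annotated exon and averaged over all 18 tumours, Cdkn2a stood at 39 CPM, Usp7 at 25.6 CPM, Mdm2 at 11.2 CPM, Trp53 at 10.5 CPM, Mdm4 at 6.8 CPM, Ppm1d at 6.66 CPM, Trp53bp1 at 4.86 CPM and Wrap53 at 4.21 CPM. The joined exons of Trp53 span 4045 bases, while its annotated coding transcripts have 1771 to 1867 bases. The order thus rests on how each gene is annotated and could differ per kilobase of transcript. The order depended on the genotype: Cdkn2a was 64.9 CPM per kilobase in p53+/- and 24.4 CPM in R245W, where Usp7 was higher at 28.5 CPM.

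Ppm1d, the Wip1 phosphatase that p53 induces, stood at 27.1, 16.3, 12.2 and 10 CPM in p53+/- tumours, from 18.4 to 31.8 CPM in R172H, at 17.5, 24.3 and 19.5 CPM in R245W and from 20.9 to 27.4 CPM in R270H. The 3 lowest tumours of the series were p53+/- 2, 3 and 4. The mean was 16.4 ± 7.6 CPM (SD, n = 4) in p53+/- tumours and 20.4 to 23.2 CPM in the missense genotypes, with a missense log2 fold of 0.31 ± 0.23 (adjusted p = 0.689). Left out in turn, p53+/- tumour 1 raised that fold to 0.65 and p53+/- tumour 4 lowered it to 0.10.

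Usp7 varied by a factor of 2.06 between the lowest and highest tumour. It was 125, 149, 160 and 238 CPM in p53+/- tumours, 130 to 258 CPM in R172H, 253, 229 and 182 CPM in R245W and 189 to 235 CPM in R270H. All genotypes overlapped, and the missense log2 fold was 0.22 ± 0.16 (adjusted p = 0.685).

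Trp53bp1 encodes a chromatin-bound DNA repair factor that also binds p53. It stood at 40.6, 63.4, 59.4 and 69.8 CPM in p53+/- tumours, from 68.4 to 88.3 CPM in R172H, at 86.8, 60.6 and 101 CPM in R245W and at 60.1, 52.9, 51.9, 85.5 and 54.5 CPM in R270H. Of the R270H tumours only tumour 4 exceeded 60.6 CPM. The log2 fold of R270H against R245W was -0.45 ± 0.20 (adjusted p = 0.237). In limma voom it was -0.59 and passed (adjusted p = 0.0474), where 1047 of 20616 genes passed.

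Wrap53, the neighbour of Trp53, followed a different order of genotypes. It stood at 5.28, 12.9, 10 and 7.53 CPM in p53+/- tumours, from 6.05 to 9.31 CPM with a median of 6.45 CPM in R172H, at 9.45, 12.7 and 7.72 CPM in R245W and at 11.6, 6.05, 9.46, 15.2 and 6.67 CPM in R270H. R172H was the lowest group by mean, and all groups overlapped. The log2 fold was -0.50 ± 0.31 for R172H against p53+/- (adjusted p = 0.537), 0.56 ± 0.34 for R245W against R172H (adjusted p = 0.578) and 0.52 ± 0.29 for R270H against R172H (adjusted p = 0.306).

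Within a genotype Trp53 and Wrap53 rose and fell together. Over all 18 tumours their log2 CPM correlated weakly (r = 0.31, permutation p = 0.205, rho = 0.29, p = 0.24). After the mean of each genotype was subtracted, r was 0.85 (permutation p = 8e-05, permuted within genotype, adjusted p = 0.00056 over 7 pairs) and rho was 0.81 (p = 0.0002, adjusted p = 0.0014). Without the 2 tumours farthest from the median of the first gene, the centred r was 0.77 (permutation p = 0.0005). Uncentred values within the kinds of title were r = 0.36 over the 11 tumours with a serial number (p = 0.282) and r = 0.66 over the 7 without (p = 0.113). All points of a tumour share its library and cell mixture. Whether reads were counted by strand is not given in the sources used here. Without strand, reads of one gene that run past its annotated start into the other could not be told apart.

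The ratio of Trp53 to Wrap53 CPM was therefore described, a choice made after the values had been seen and so given with no test. It was 2.54, 2.09, 2.21 and 2.37 in p53+/- tumours, 5.94 to 10.3 with a median of 6.67 in R172H, 6.04, 5.79 and 7.94 in R245W, and 3.89, 4.59, 2.79, 3.5 and 4.54 in R270H. No missense tumour overlapped a p53+/- tumour, and R270H tumours lay below all R172H and R245W tumours. The same separation of all missense from all p53+/- tumours, relative to Wrap53, was found for 4 of 20615 genes (0.0194%). Since the divisor was chosen after the values had been seen, that share is not a measure of chance. Of the 10 tested coding genes nearest to Trp53, Wrap53 and Fxr2 gave this separation as the divisor, and the other 8 did not.

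**Figure D3:**
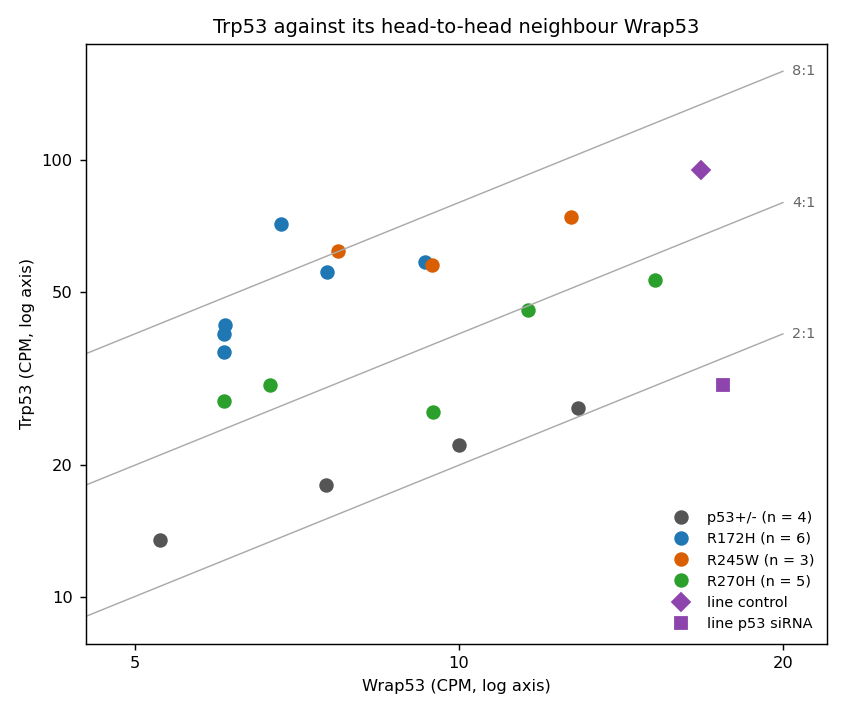
Trp53 against Wrap53 in CPM (both axes logarithmic) for the 18 tumours and the 2 line libraries; grey lines mark ratios of 2, 4 and 8 to 1. The p53+/- tumours lie at ratios of 2.09 to 2.54, the R270H tumours at 2.79 to 4.59, and the R172H and R245W tumours at 5.79 to 10.3.

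The other 6 pairs of genes gave no relation that passed after adjustment in all tumours, pooled or centred. Trp53 and Mdm2 were unrelated over the 18 tumours (r = 0.00, permutation p = 0.985). Trp53 and Cdkn1a, the cell cycle inhibitor that is a main target of p53, gave r = 0.49 (permutation p = 0.0378, adjusted p = 0.132), and 0.39 without the 2 tumours farthest from the median. Mdm2 and Ppm1d gave r = 0.55 (permutation p = 0.0247, adjusted p = 0.132), which rested on 2 tumours, since r was -0.03 without them. Mdm2 and Mdm4 gave r = 0.10 pooled, -0.78 over the 11 tumours with a serial number in the title (permutation p = 0.00678, adjusted p = 0.0475; rho = -0.73, adjusted p = 0.106) and 0.36 over the other 7.

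The genes with the pattern most like that of a member across the 18 tumours were looked up among 13449 coding genes, by the mean absolute difference of standardised log2 CPM. For Cdkn2a they were Mtap (0.412, against a median of 1.05 over all genes), which lies beside it on chromosome 4, and Trim32 on the same chromosome. For Mdm2 the nearest was Rap1b (0.288), one of its neighbours on chromosome 10, then Isca1. For Wrap53 they were Fxr2 (0.364) and Senp3 (0.373), both within the same stretch of chromosome 11. For Ppm1d they were Zfp830 (0.369) on its own chromosome and Ube2d3, for Usp7 Gspt1 (0.461) on its own chromosome and 2310057M21Rik, and for Trp53bp1 Ubox5 (0.409) on its own chromosome and Kdm6b (0.412). The nearest to Trp53 were Prss48 (0.51) and Gprc5a (0.518), the nearest to Trp63 was Xlr3b (0.443), and the nearest to Mdm4 were Xrn1 (0.483) and Cpeb2 (0.495), all on other chromosomes.

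In all, 8 of the 18 genes found in this way, 2 for each tested member, lay on the chromosome of their member. Of the 20 nearest genes, the same chromosome held 12 for Cdkn2a, 12 for Wrap53, 11 for Trp53bp1, 10 for Usp7, 8 for Mdm2, 4 for Ppm1d, 3 for Mdm4, 1 for Trp53 and 0 for Trp63. Together that was 61 of 180, or 33.9%. Over all 13450 genes the mean was 21% and the median 3 of 20, with quartiles of 1 and 6, so the numbers of Trp53, Mdm4 and Ppm1d lay between the quartiles.

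**Figure D4:**
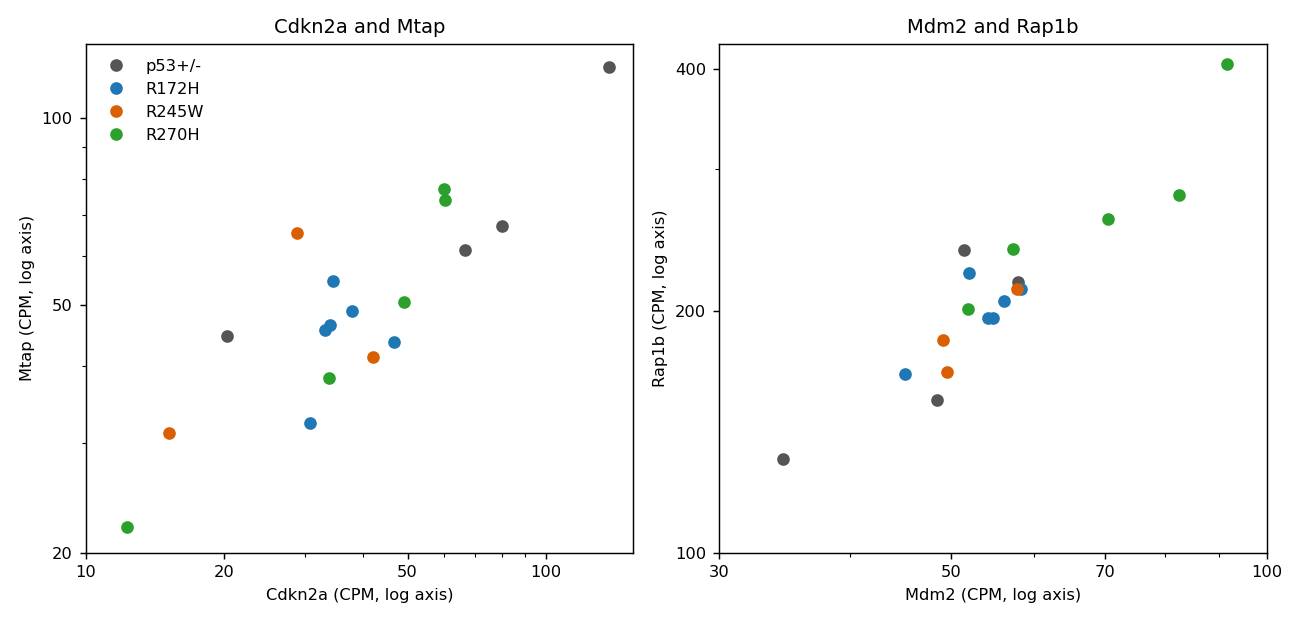
Cdkn2a against Mtap and Mdm2 against Rap1b in the 18 tumours (CPM, logarithmic axes, coloured by genotype). The tumour of highest Cdkn2a, at 137 CPM, has the highest Mtap at 121 CPM, and the tumour of highest Mdm2, at 91.6 CPM, has the highest Rap1b at 406 CPM.

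Rap1b ranged from 201 to 406 CPM in R270H and from 131 to 238 CPM in p53+/- tumours. Mtap had its highest group median in p53+/- tumours, at 64.3 CPM, where Cdkn2a was also highest. Both genes had been chosen for their likeness over these same tumours.

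Genes that p53 activates were read as its output. All 32 listed targets were tested, and their median log2 fold against p53+/- was -0.05 in R172H, -0.19 in R245W and 0.05 in R270H, against -0.02, -0.04 and -0.01 for all genes. In the 3 contrasts with p53+/- none was called. Perp, a p53 target that is also a desmosome component of epithelia, was called higher in R270H than in R172H (log2 fold 3.85 ± 0.98, adjusted p = 0.0307). Its level was 50.1 CPM in R270H tumour 4 and 9.87 CPM in R270H tumour 3, which had the highest epidermal sums, and at most 1.45 CPM in every other tumour. Without the 3 tumours of highest epidermal sum no target was called in that contrast, and 2 epidermal markers, Krt14 and Dsp, were called in it with all tumours. The Perp call was also lost with the kind of title as a covariate, with limma voom, and without any 1 of the 6 R172H tumours or R270H tumour 3 or 4.

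In the test for any difference 3 of 32 targets passed, against 2.86% of all genes. They were Perp (adjusted p = 0.0383), Sesn2 (adjusted p = 0.0406) and Tnfrsf10b (adjusted p = 0.0434). Sesn2, a stress-induced inhibitor of mTORC1 signalling, stood at 54.5, 71, 26 and 40.2 CPM in p53+/- tumours and at 9.75 to 24.3 CPM in R270H, where every tumour was below every p53+/- tumour, a separation found for 3.07% of all genes in either direction. Tnfrsf10b, a death receptor, stood at 17.1, 20.9 and 16.4 CPM in R245W and at most at 9.5 CPM in every other tumour. None of the 3 passed with the kind of title as a covariate, with limma voom or without the 3 tumours of highest epidermal sum. None passed without R172H tumour 1, 3 or 4, R245W tumour 1 or 3, or R270H tumour 3. Only 1 of the 3 passed without R172H tumour 2, 5 or 6 or R270H tumour 1, 2 or 5. Cdkn1a was called in no contrast and did not pass the test for any difference. It stood at 19.8 to 60.9 CPM in p53+/- tumours, 20.4 to 60.5 CPM in R172H and 23.1 to 82.1 CPM in R270H. In R245W it was 62, 102 and 94.3 CPM, which overlapped R270H. On the TMM-scaled levels 8.77% of all genes did not overlap between R245W and p53+/-, and 13.5% between R245W and R270H.

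Ribosomal and nucleolar proteins that bind Mdm2 differed most between R270H and R172H. Of 10 listed genes 5 were called higher in R270H than in R172H and none lower, against 3.41% of all genes called higher there. The list median was 0.84 against -0.02 for all genes. Against p53+/- tumours none of the 10 was called, and the list median was -0.55 in R172H, 0.03 in R245W and 0.10 in R270H. All 10 lay below 0 in R172H against p53+/-, and all 10 lay above 0 in R245W against R172H. Rpl5, a protein of the large ribosomal subunit that can bind and inhibit Mdm2, stood at 82 to 174 CPM in R270H and at 44.4 to 63.9 CPM in R172H, without overlap, as for 7.69% of all genes (log2 fold 1.30 ± 0.22, adjusted p = 0.00746). In the same contrast the log2 fold of Rps7 was 1.82 ± 0.38 (adjusted p = 0.0165). That of Rps27l, which p53 also induces, was 1.30 ± 0.31 (adjusted p = 0.0251). For the nucleolar genes Ncl and Gnl3 it was 0.79 ± 0.19 (adjusted p = 0.0239) and 0.90 ± 0.21 (adjusted p = 0.0243). None was called with the kind of title as a covariate. Without the 3 tumours of highest epidermal sum only Rpl5 was still called. The calls of Ncl, Gnl3 and Rps27l were each lost without R172H tumour 3 or R270H tumour 4, that of Gnl3 also without R172H tumour 4 or R270H tumour 1, and that of Rps27l also without R172H tumour 1 or R270H tumour 3. Of 13 neutrophil and erythroid markers 4 were also called higher in this contrast. The 13 summed to 133 to 2784 CPM in R270H and to 62.2 to 484 CPM in R172H. Of 14 macrophage and osteoclast markers 1, Cd68, was called lower, as were 385 of all 20616 genes. Of these 14 markers 9 lay below 0 and 5 above. The part of these cells and of the title kinds in the change was not tested. Many pseudogenes resemble ribosomal protein genes, and how reads shared with them were counted is not given in the sources used here.

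The other groups of the pathway held few calls. Of 10 genes of the pocket proteins and G1 control, Cdk6, a kinase that p16Ink4a inhibits, was lower in R270H than in R245W (log2 fold -1.43 ± 0.32, adjusted p = 0.0384), with means of 112 ± 33.8 (SD, n = 5) and 300 ± 168 CPM (n = 3). The call was lost in 11 of 25 alternatives: with the kind of title as a covariate, with no low-count filter, with only the groups compared, without the 3 tumours of highest epidermal sum, and without R172H tumour 1, R245W tumour 1 or 2, or R270H tumour 1, 2, 3 or 5. Of 15 genes that control or adjoin Cdkn2a, Myc passed the test for any difference (adjusted p = 0.0494), with a mean of 246 ± 123 CPM in R245W and 69.6 to 87.5 CPM in the other genotypes. That call was lost in 17 of 24 alternatives: with the kind of title as a covariate, with no low-count filter, with limma voom, without the 3 tumours of highest epidermal sum, and without p53+/- tumour 3 or 4, any R172H tumour, R245W tumour 2 or 3, or R270H tumour 1, 3 or 5. Among 16 stress kinases, 16 acetyl and methyl transferases or erasers, 16 other ubiquitin enzymes and 15 cofactors and chaperones none was called by edgeR in any contrast. The lowest adjusted p in the test for any difference was 0.0942 for Hipk2, 0.0898 for Crebbp, 0.102 for Usp10 and 0.0888 for Hsf1.

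In cell line 14 the targeted gene was checked first. Trp53 fell from 94.9 CPM in the control to 30.6 CPM in the p53 siRNA library. In CPM plus 1, 32.9% was left, a log2 ratio of -1.60 and the lowest of the 9398 genes of at least 10 CPM. Without the added 1 the log2 ratio of Trp53 had a 95% interval of -1.71 to -1.56, which covers counting error only. Without it the target gene Cdkn1a, at 12.9 and 3.65 CPM, had an interval of -2.02 to -1.61, which reached lower than that of Trp53 but overlapped it. There was 1 library each, so no test was possible and no spread between cultures is known. By the ratio of CPM plus 1 there were 11 genes at least 2-fold lower (0.117%) and 0 at least 2-fold higher (0%).

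Mdm2 went from 118 to 83.8 CPM, a log2 ratio of -0.49 that ranked 129 from the lowest. Mdm4 went from 92.9 to 70.3 CPM, a log2 ratio of -0.40 and rank 248. The other members lay close to no change: -0.08 for Trp53bp1, -0.06 for Usp7, 0.02 for Ppm1d, 0.06 for Wrap53, 0.17 for Trp63 and 0.19 for Cdkn2a. Trp53 was thus the 1 member past 2-fold, and with Wrap53 at 16.8 and 17.6 CPM the ratio of Trp53 to Wrap53 went from 5.65 to 1.74.

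Of the 32 p53 targets, without a filter on the level in the line, 29 had a lower value in the siRNA library and 3 a higher one. Their median log2 ratio was -0.27, against -0.02 for the 20616 genes tested in the tumours, of which 11242 were lower. Of the 26 targets that reached 10 CPM in at least 1 library of the line, 4 did so in the control library alone. Among the 26, Cdkn1a went from 12.9 to 3.65 CPM, in CPM plus 1 the lowest ratio after Trp53 itself (log2 ratio -1.57). Sesn2 went from 109 to 53.9 CPM. Gadd45a (-0.93), Ccng1 (-0.77) and Trp53inp1 (-0.74), which act in growth arrest and stress responses, came next among the 26. Cdkn1a and Trp53inp1 were among the 4 that reached 10 CPM in the control alone. Eda2r (-0.92) and Pmaip1 (-0.91), below 10 CPM in both libraries, also had ratios lower than that of Ccng1.

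**Figure D5:**
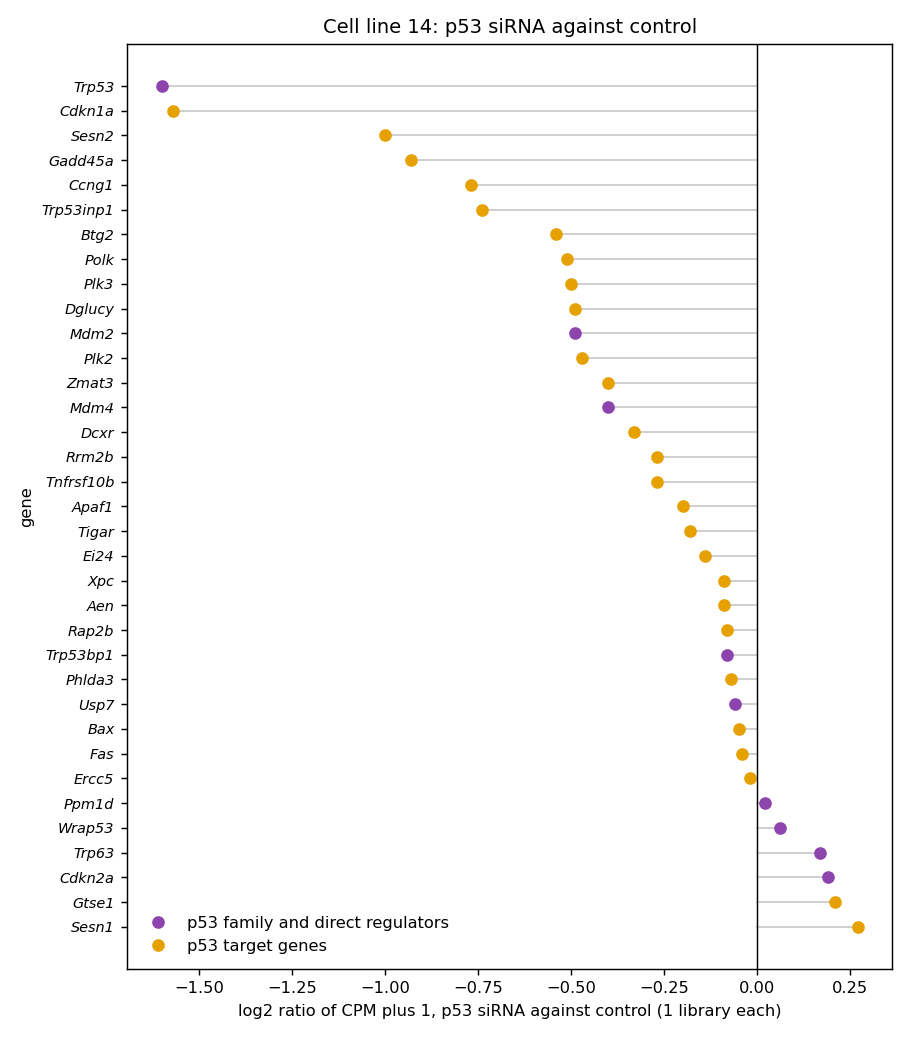
Log2 ratio of CPM plus 1 in the p53 siRNA library against the control library of line 14 (x axis) for the members and the p53 targets of at least 10 CPM; 1 library per condition, so there are no error bars. Trp53 and Cdkn1a lie at -1.60 and -1.57, Mdm2 and Mdm4 at -0.49 and -0.40, and the other members between -0.08 and 0.19.

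Set beside the tumours, the control library of the line had more transcript than each of the 18 tumours for Trp53, Mdm2, Cdkn2a, Usp7, Wrap53 and Trp53bp1. Cdkn2a stood at 212 CPM in it against at most 137 CPM in a tumour, and Mdm2 at 118 against at most 91.6 CPM. Mdm4, Ppm1d and Trp63 lay within the range of the tumours. These CPM values are not scaled between the line and the tumours. The share of all genes for which the line exceeded every tumour was not computed. Whether the higher levels are particular to the members is therefore not known.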

How the data were processed

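Raw gene counts were deposited by the authors as 1 table of 20 libraries. Reads were aligned to GRCm38 with STAR 2.6.0b, and DESeq2 is named, per the submitters' processing notes. The counting program, annotation and strand setting are not given in the sources used here. Of 49585 gene IDs, 49326 were matched to symbols in GENCODE M21.

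Counts of the 18 tumours were filtered (filterByExpr, minimum count 10) to 20616 genes, scaled by TMM and fitted by genotype in 1 edgeR 4.0.16 quasi-likelihood model (R 4.3.3), with 14 residual degrees of freedom and Benjamini-Hochberg adjustment over all genes at 0.05. Printed CPM values use the library total without TMM, folds and tests use TMM. Tumours of a genotype count as replicates, and their p-values measure the spread between these tumours. Single levels were compared by exact permutation tests on log2 CPM (prior count 2), and relations by 100000 permutations (SciPy 1.17.1). Alternatives were DESeq2 1.42.0, limma 3.58.1 (voom), other filters and covariates, and each tumour left out. The models were tested on simulated counts. The 2 line libraries received no test. Genes named are all members, the 2 of most similar pattern for each (1 of these is not reported here), and list genes past the threshold or, where none passed, those of lowest p. The members and gene lists were chosen with earlier results of these data known. Removing the 3 tumours of highest epidermal sum and testing without TMM were added after seeing the data. A protein table was not used here.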

Additional observations from a re-analysis of the deposited data

Results flagged for a closer look

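Outlying tumours were looked for in each tested member and each genotype of 4 to 6 tumours, 27 groups of values in all, by the gap between the highest or lowest tumour and the next one. Chance marks about 1 group in 20. A tumour stood apart in 2 groups, and both times it was R172H tumour 6. Its Cdkn2a level was 46.6 CPM, and the other 5 R172H tumours lay at 30.7 to 37.9 CPM. Its Wrap53 level was 9.31 CPM, and the others lay at 6.05 to 7.55 CPM.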

How the results depend on the processing

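No paired analysis was possible because the replicate numbers follow accession order and pair no samples. The 22 member folds given with a standard error kept their direction in all 559 alternative values. Of the 63 folds of members in all, 25 changed sign somewhere, none of them a fold of 2 standard errors or more. The number of members called went from 0 to 1 with DESeq2 in R172H, R245W and the missense mean against p53+/-, and from 0 to 1 with limma voom in R270H against R245W. Over all 20616 genes the calls there were 295, 363, 130 and 1047. In the test for any difference the number of members went from 1 to 0 with limma voom, the title covariate and without the 3 tumours of highest epidermal sum. Over all genes 330, 19 and 37 passed in those settings. Leaving out each tumour gave 0 to 1 members in R172H, R245W and the missense mean against p53+/-, 0 in the other contrasts and 0 to 2 in the test for any difference, where the adjusted p of Trp53 was 0.0162 to 0.0572. For R172H, R245W and the missense mean against p53+/- the calls over all genes were 0 to 166, 5 to 30 and 0 to 69. For any difference they were 185 to 937.

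For p53 targets DESeq2 called 2 in R270H against p53+/-, 1 in R245W against R172H, 4 in R270H against R245W and 1 for the missense mean. Over all 20616 genes DESeq2 called 320, 348, 1194 and 130 in that order. Limma voom called 1 target in R245W against R172H, 0 in R270H against R172H and 3 in R270H against R245W. Over all genes its counts were 119, 2294 and 1047. R270H against R172H gave 0 targets with the title covariate or without the 3 tumours, and fitting only the groups compared gave 1 in R270H against R245W. Over all genes the counts were 1, 135 and 206 in that order. For any difference the count of targets was 0 with limma voom, the title covariate and without the 3 tumours, with 330, 19 and 37 over all genes. Leaving out each tumour gave 0 to 1 targets in R270H against p53+/- and against R245W, 0 to 2 in R270H against R172H and 0 to 3 for any difference. The counts over all genes were 0 to 21, 48 to 411, 469 to 1323 and 185 to 937 in that order.

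For the regulator lists DESeq2 called 1 in R172H and 4 in R245W against p53+/-, 3 in R245W against R172H, 5 in R270H against R245W and 13 for any difference. Over all 20616 genes DESeq2 called 295, 363, 348, 1194 and 2475 in that order. Limma voom called 1, 9 and 4 listed genes in R245W against R172H, R270H against R172H and R270H against R245W, and 2 for any difference. Over all genes its counts were 119, 2294, 1047 and 330 in that order. The title covariate gave 0 listed genes in R270H against R172H, against R245W and for any difference, with 1, 8 and 19 over all genes. Without the 3 tumours the counts of listed genes were 1 in R245W against R172H, 1 in R270H against R172H, 0 in R270H against R245W and 0 for any difference. Over all 20171 genes tested there they were 34, 135, 32 and 37. No low-count filter gave 0 listed genes in R270H against R245W and 2 for any difference, and fitting only the groups compared gave 0 in R270H against R245W. The counts over all genes were 109, 439 and 206 in that order. Leaving out each tumour gave 0 to 1 listed genes in R172H against p53+/- and in R245W against R172H, 2 to 6 in R270H against R172H, 0 to 2 in R270H against R245W and 0 to 8 for any difference. The counts over all genes were 0 to 166, 14 to 39, 469 to 1323, 48 to 411 and 185 to 937 in that order.

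On CPM without TMM the centred r of Trp53 and Mdm2 was -0.10, and Mdm2 with Cdkn1a gave -0.03 pooled and -0.08 centred, each opposite in sign to the value with TMM, and 1 exact test passed adjustment instead of 0, that of Trp53 in the missense tumours against p53+/-. The log2 ratio of Trp53 in the line was -1.49 with 5 added to CPM in place of 1. The cause of these changes was not tested. Depth limits Trp73, whose levels lie within 3 counts, and few tumours per genotype limit all tests.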

Other observations

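The neighbourhood of each member was compared with the member itself, tumour by tumour, over the 5 tested coding genes nearest on each side. The median deviation of these 10 genes from their own medians over the tumours lay on the same side of 0 as that of the member in 16 of 18 tumours for Wrap53, 15 for Mdm4, 14 for Trp53 and Ppm1d, 13 for Mdm2, 12 for Usp7 and Trp73, 11 for Cdkn2a, 9 for Trp53bp1 and 6 for Trp63. With 3 genes on each side the counts were 13, 12, 14, 13, 14, 12, 11, 10, 11 and 7 in that order. Trp53 and Wrap53 are among the neighbours of each other. The same count was not made for other genes, so no background is known. The size of the deviations differed: Trp53 ranged from -1.40 to 0.99 on the log2 scale and its neighbours from -0.38 to 0.44, and Cdkn2a ranged from -1.28 to 1.95 and its neighbours from -0.45 to 0.41. These are descriptions, since neighbours share the library, and no copy number was measured.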
